A study of Drosophila melanogaster with 70 samples.

Results

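Chromatin domains are stretches of a chromosome that contact themselves more than their surroundings, and a domain boundary is where one ends and the next begins. The boundaries described here were called in the Drosophila melanogaster blastoderm with and without maternal depletion of the acetyltransferase gene mof, and were no longer called at stage 15. A boundary of the stage 5 control list belonged to this set when its midpoint lay within 2.5 kb of a boundary midpoint of the stage 5 mof RNAi list and not within 2.5 kb of any stage 15 midpoint on the same arm. The rule was met by 635 of the 2591 control boundaries, called gone boundaries below. The 1404 boundaries of both stage 5 lists that had a stage 15 partner are called kept boundaries. Gone boundaries were therefore 31.1% of the 2039 boundaries of both stage 5 lists. Over the whole control list, 38.3% had no stage 15 partner. The members were thus chosen by the called positions in all 3 lists, so their number, their distance to stage 15 boundaries and their shares by arm are given as descriptions.

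The series followed acetylation of lysine 16 of histone H4 through development, and its Hi-C experiments (13 of 70 samples) joined and sequenced DNA ends from loci in contact. Stage 15 was represented by 8 libraries of embryos 14 to 16 h after egg laying, 2 for each combination of maternal RNAi (mof or control) and sex. Stage 5 was represented by 2 libraries after mof RNAi and 3 control libraries of blastoderm embryos in the middle of nuclear cycle 14, whose sex was not given. Each library came from 50 to 100 embryos staged by hand, cut with DpnII and read as paired ends of 75 bp. RNAi was driven in the mothers by maternal tubulin Gal4 (Bloomington stock 7062 at stage 15, 7063 at stage 5), with stock 58281 for mof and 36304 for control, and the mothers were mated to their siblings. Depletion of this kind acts on what the mother loads into the egg. Stage 15 embryos also carried Sxl-GFP, and GFP-negative embryos were taken as male and GFP-positive ones as female. The strain text of the mof RNAi samples speaks of control RNAi but gives the mof stock, so groups follow the sample titles.

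The descriptions of all 8 stage 15 libraries name the same single list of boundaries. Which of them were pooled in it is not stated, so sex and maternal RNAi cannot be told apart at stage 15. The stage 15 list held 2785 boundaries, the stage 5 mof RNAi list 2499 and the stage 5 control list 2591. Since each condition had a single pooled list, replicate error could not be estimated and no test was run. Intervals printed are 95% Wilson intervals for shares and Newcombe intervals for differences of shares. They reflect counting error alone and assume that boundaries are independent of each other. The lists hold no read counts and no expression values, so depth is unknown and the labelled stages could not be checked against marker genes.

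In fly embryos, domain boundaries appear as the zygotic genome is switched on around nuclear cycle 14. Many form at promoters of housekeeping genes and at sites of insulator proteins such as BEAF-32, CP190 and pita. Pioneer factors such as Zelda open the enhancers and promoters of the first zygotic genes, many of which pattern the embryo and fall silent again within hours. MOF places the H4K16 acetyl mark and acts at promoters across the genome in the NSL complex, and on the X of males in the MSL complex.

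Gone boundaries lay away from gene ends more often than kept ones. A protein-coding gene ended or began within 2.5 kb of 400 of the 635 gone boundaries (63.0%, 59.2 to 66.7) and of 1260 of the 1404 kept boundaries (89.7%, 88.1 to 91.2). The difference was -26.8 percentage points (-30.9 to -22.7). It had the same sign and a similar size on each of the 5 arms, between -28.7 points on 3R and -24.3 points on X. It was smaller at -15.9 points (-21.6 to -10.7) without boundaries beside bins left out of the stage 5 maps, and at -10.6 points (-16.4 to -5.89) among the 50% of boundaries with the most negative scores. The median distance to the nearest gene end was 1.31 kb for gone boundaries and 0.485 kb for kept ones. At least 2 genes had an end in the window at 41.3% of gone boundaries and at 71.6% of kept ones.

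The gone boundaries without a gene end fell into 2 kinds. Inside a protein-coding gene and away from its ends lay 157 of them (24.7%), against 102 kept boundaries (7.27%). Of these, 138 and 88 were in a gene of 20 kb or more. Between genes lay 78 gone boundaries (12.3%) and 42 kept ones (2.99%). Read the other way, 60.6% of stage 5 boundaries inside genes were gone at stage 15 (54.6 to 66.4, n = 259), as were 65.0% of those between genes (56.1 to 73.0, n = 120). At gene ends the share was 24.1% (22.1 to 26.2, n = 1660). Boundaries without a gene end were gone more often than those with one by 37.9 points (32.5 to 43.1).

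The genes whose interior held gone boundaries were long. The 157 boundaries lay in 136 host genes. Counted per boundary, the median host length was 72.2 kb, and for the 102 kept boundaries inside genes it was 60.3 kb. Boundaries of this kind lay more than 2.5 kb from any gene end, so a longer gene has more room for them by its length alone. Of the 136 genes, 16 also held a kept boundary of this kind. Kept boundaries inside genes numbered 102 in all, and the overlap that such counts give by themselves was not computed. The number 16 therefore does not show that these genes differ from others. Several of the 136 genes held more than 1 gone boundary. These 15 genes are named because of that count, after their values were seen. The gene lovit on 3L held 5, and Sh, which encodes the Shaker potassium channel of neurons, DIP-lambda and Myo81F held 3 each. CadN (N-cadherin), hth (a homeodomain cofactor of Hox proteins), psq, pyd (the fly ZO-1 protein of cell junctions), Snap25 (a vesicle fusion protein of synapses), nAChRalpha4 (an acetylcholine receptor subunit), bru3, Eip63E, Fur1, Pde1c and CG40006 held 2 each. Of these 15, Myo81F also held 2 kept boundaries and the others held none, which was not compared with genes chosen in another way. All gone boundaries counted in lovit, DIP-lambda, Myo81F and CG40006 lay within 3 Mb of the centromere-side end of the mapped arm. In that zone 58.1% of the boundaries of both stage 5 lists were gone. None of those counted in the other genes lay there.

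Gone boundaries had less negative scores than kept ones. The score is the authors' own deposited value for each boundary on a scale that is not stated, and it was used within 1 list only. In the mof RNAi list the median was -0.164 for gone boundaries and -0.361 for kept ones. In the control list it was -0.211 for gone boundaries (quartiles -0.454 and 0.0567) and -0.432 for kept ones (quartiles -0.617 and -0.216). A positive control score was carried by 30.6% of gone boundaries and 9.62% of kept ones. By quintiles of the control score, ordered most to least negative, 17.2%, 21.6%, 28.3%, 32.6% and 56.1% of stage 5 boundaries were gone. No value here shows what a score of a given sign means for the strength of a boundary.

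Within each quintile, boundaries without a gene end were still gone more often than those with one. In the least negative quintile, 134 of 181 without a gene end were gone (74.0%, 67.2 to 79.9), against 95 of 227 with one (41.9%, 35.6 to 48.3). The difference was 32.2 points (22.7 to 40.7). In quintiles 2, 3 and 4 it was 28.5, 31.7 and 29.4 points, each with an interval above 0. In the most negative quintile it was 12.8 points, and its interval (-2.05 to 33.0) included 0, with 24 boundaries lacking a gene end there.

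**Figure D1:**
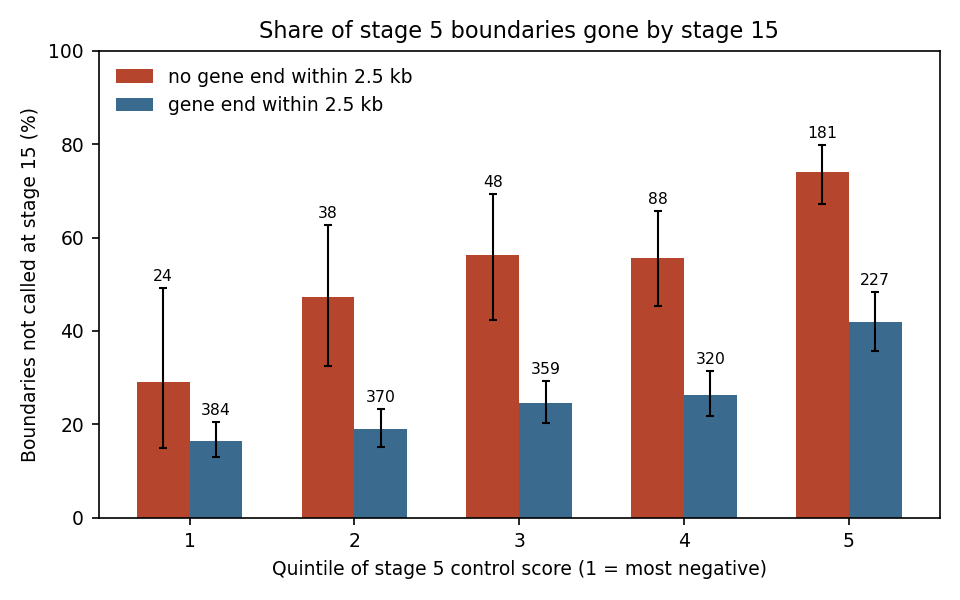
Share of boundaries of both stage 5 lists that were not called at stage 15 (y axis, percent), by quintile of the stage 5 control score (x axis, 1 is most negative), for boundaries without and with a protein-coding gene end within 2.5 kb. Bars are shares, lines are 95% Wilson intervals and numbers are boundaries. The bar without a gene end is the taller in each quintile, at 74.0% against 41.9% in the last.

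Bins left out of the stage 5 maps, read from gaps in the numbers of the boundary names, lay in a domain beside 59.2% of gone boundaries and 45.3% of kept ones. Beside such bins, 37.2% of stage 5 boundaries were gone (n = 1012), against 25.2% away from them (n = 1027). The contrast by gene end was also present where no such bins lay beside a boundary. There 51.7% of boundaries without a gene end and 21.8% of those with one were gone, a difference of 29.9 points (20.5 to 39.1). The names in the stage 15 list show no missing bins, and whether that map left any out is not known.

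The genes at gone and kept boundaries had similar lengths. Of 3746 protein-coding genes with an end within 2.5 kb of a boundary of both stage 5 lists, 818 (21.8%) were at a gone boundary and at no kept one. Their median length was 3.04 kb, that of the 2905 genes at kept boundaries only 2.99 kb, and that of all 13842 protein-coding genes on the arms 2.15 kb. Genes of 2 kb or less made up 35.3% and 35.4%. Genes with a single RefSeq transcript made up 41.8% of genes at gone boundaries and 36.0% of those at kept ones, a difference of 5.84 points (2.07 to 9.66).

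Most gone boundaries had no stage 15 boundary nearby. The median distance to the nearest one was 17.5 kb (quartiles 10 and 30 kb, range 2.81 to 135 kb). It was 25 kb for gone boundaries without a gene end and 12.5 kb for those with one. A stage 15 boundary lay within 10 kb of 197 (31.0%), and none lay within 10 kb of the other 438 (69.0%). More than 20 kb separated 243 of them from any stage 15 boundary, and more than 50 kb separated 51. Just outside the matching limit of 2.5 kb, 4 gone boundaries lay at 2.81 kb, 5 at 3.75 kb and 92 at 5 kb. Just inside it, 247 kept boundaries lay at 2.5 kb, while 1127 had an identical midpoint at stage 15.

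**Figure D2:**
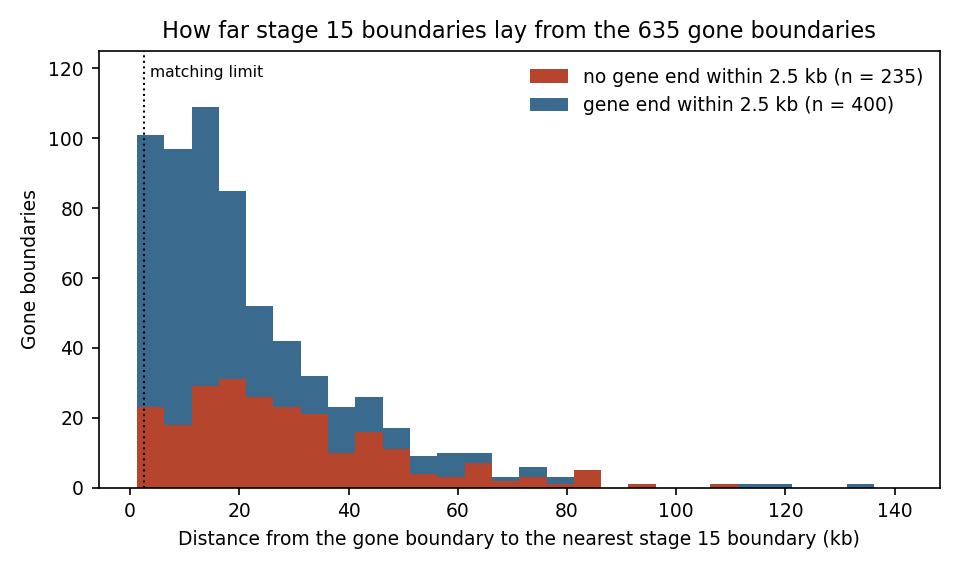
Number of gone boundaries (y axis) by distance to the nearest stage 15 boundary in kb (x axis, steps of 5 kb), stacked by whether a protein-coding gene end lay within 2.5 kb. The dotted line is the 2.5 kb matching limit. Of the 635, 197 lie within 10 kb of a stage 15 boundary and 51 lie beyond 50 kb.

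At stage 15 each gone boundary lay inside a domain, apart from those at Kr and heph, which lay beyond the last stage 15 boundary of their arms. The domains that held them had a median length of 65 kb (quartiles 42.5 and 107.5 kb), beside 35 kb for all 2780 stage 15 domains. A longer domain holds more stage 5 boundaries by its length alone. The 633 gone boundaries lay in 558 domains, of which 492 held 1, 58 held 2, 7 held 3 and 1 held 4. In 96 of the 558, both domain ends were also stage 5 control boundaries. The stage 5 control boundaries between those ends were all gone boundaries. As called, this is a plain fusion of neighbouring blastoderm domains, and contacts across the boundaries were not examined. Of 632 gone boundaries with a neighbour on each side, 88 (13.9%) had both of their stage 5 neighbours as their stage 15 neighbours. For 303 (47.9%) 1 of the pair was, and for 241 (38.1%) neither was.

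Several patterning genes of the blastoderm lay at gone boundaries. Earlier results of these data had already shown that hb, Kr, kni, tll, hry, run, inv, Sry-alpha, term and slam lost their boundaries, so their count is no independent support. Joined, the gap, pair-rule, segment polarity, dorsoventral and early zygotic lists had 29 genes at a boundary of both stage 5 lists. Of these, 18 (62.1%, 44.0 to 77.3) were at a gone boundary and at no kept one, beside the 21.8% for all protein-coding genes. With a window of 1 kb the share was 58.8% (36.0 to 78.4), and that over all protein-coding genes was not computed. The ends of hb, kni, tll, hry, run, dpp, slam and term, 1.74 to 2.32 kb from their boundaries, fall outside that window. The 18 genes lay at 18 boundaries with a median control score of -0.247, and 4 of those had a stage 15 boundary within 10 kb. At boundaries scoring above the median of the 2039, 14 of 20 such genes were at a gone one only (70.0%, 48.1 to 85.5), with 27.7% for all protein-coding genes. At the others it was 4 of 10 (40.0%, 16.8 to 68.7), with 18.2% for all protein-coding genes.

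Gap genes divide the egg into broad regions. The boundary at hb, the anterior gap gene, lay at 3R 8698751 to 8701250 of the dm6 assembly, 2.18 kb from the gene's right end, with a control score of -0.233. It had the same position after mof RNAi. The stage 15 list had its nearest boundary 15 kb to the right and its next on the left at 57.5 kb, so that hb lay in a domain of 72.5 kb. In control blastoderms the domain holding hb had ended at this boundary and begun 40 kb to its left.

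The boundary at kni, which encodes a nuclear receptor-like repressor, lay at 3L 20696251 to 20698750 with a score of -0.361. At stage 15 kni lay in a domain of 92.5 kb, where this boundary had divided a stage 5 domain of 77.5 kb with kni from one of 15 kb. The outer ends of that stretch were in all 3 lists, so this was a plain fusion as called. The boundary near tll, a terminal gap gene, lay at 3R 30848751 to 30851250 (score -0.332). The stage 15 domain over it was 45 kb long, and its left end, 25 kb away, was a position called in neither stage 5 list. At stage 5 the boundary lay between domains of 42.5 and 20 kb.

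The boundary inside Kr, the central gap gene, lay at 2R 25226251 to 25228750 and had a score of 0.352, at the 96.0th percentile of the list counted from the most negative. It was 1 bin farther left after mof RNAi, and the nearest stage 15 boundary was 45 kb away. Left-out bins lay beside it. The remaining gap gene at a boundary, knrl, the neighbour and paralog of kni, was at a kept one.

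Both pair-rule genes at a boundary of both stage 5 lists were at gone ones. The boundary inside run, a Runx factor that also acts in sex determination, lay at X 20693751 to 20696250 with a score of 0.129. The nearest stage 15 boundaries were 65 kb away on either side, and run lay in a stage 15 domain of 130 kb. The boundary inside hry, a bHLH repressor, lay at 3L 8676251 to 8678750 (score -0.395). A stage 15 boundary lay 5 kb from it, so its loss rests on the matching limit.

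Of segment polarity genes, inv was at a gone boundary 22.5 kb from stage 15 ones (2R 11473751 to 11476250, score -0.452). Its paralog en, together with hh and ptc, was at kept boundaries. Of 6 dorsoventral genes, dpp, fog and tld were at gone boundaries only. The one inside dpp, the fly BMP ligand, lay at 2L 2456251 to 2458750 (score -0.262), where a stage 15 domain of 72.5 kb took the place of stage 5 domains of 37.5 and 35 kb. The boundary at fog, whose product drives apical constriction at gastrulation, was 27.5 kb from stage 15 ones. The boundary inside the protease gene tld, 0.875 kb from its paralog tok, was 5 kb from a stage 15 boundary, and tok was at a kept boundary too. The genes rho and T48 were at kept boundaries.

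Of 13 early zygotic genes, 9 were at gone boundaries only: slam, Sry-alpha, halo, Z600, term, run, Bub3, CG14427 and CG15876. Slam and Sry-alpha act in furrow formation during cellularization, halo in lipid droplet transport, and Z600 holds back mitosis in the blastoderm. Bub3 is a spindle checkpoint gene. The boundary at Sry-alpha (3R 30038751 to 30041250) had a score of -0.898, at the 1.08th percentile, and that at Z600 (3L 15508751 to 15511250) -0.682, at the 10.6th. The others lay between the 44.3th and the 86.6th percentile. Distances to stage 15 boundaries were 20 kb at slam, 17.5 kb at Sry-alpha, 12.5 kb at halo, 15 kb at Z600, 32.2 kb at term and 27.5 kb at CG14427. They were 7.5 kb at Bub3 and 5 kb at CG15876. The genes bnk, sisA, Sxl and esg were at kept boundaries, those of bnk, sisA and esg shifted by 1 bin.

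**Figure D3:**
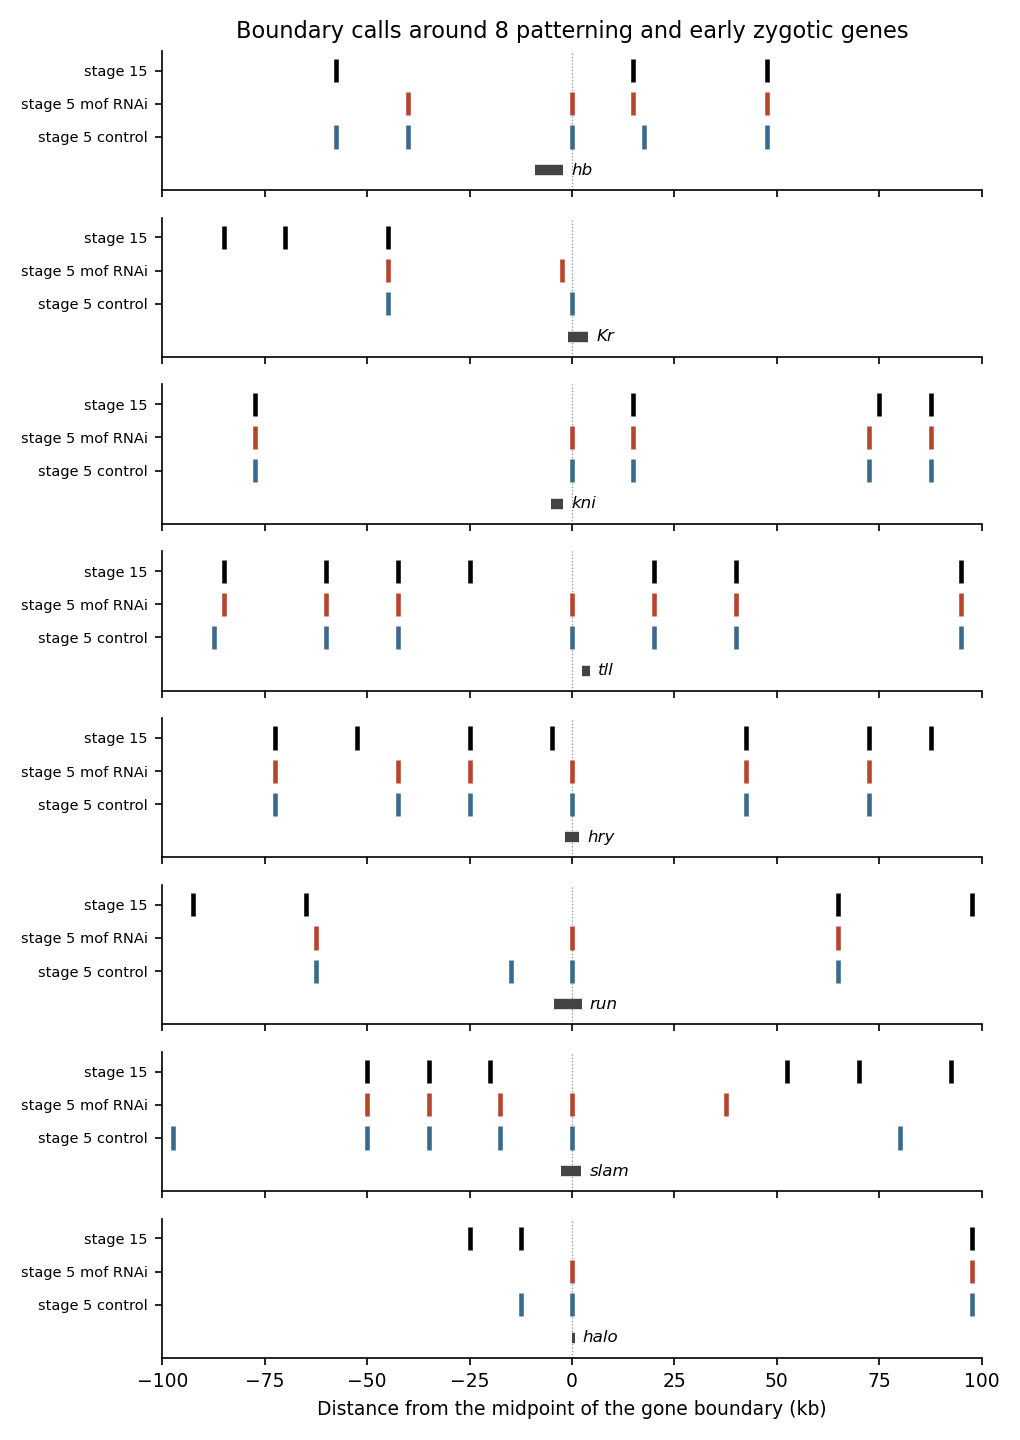
Boundary calls (vertical ticks) in the stage 15, stage 5 mof RNAi and stage 5 control lists around 8 genes, by distance in kb from the midpoint of the gone boundary (x axis); grey bars are the genes. A tick at or within 2.5 kb of 0 is present in both stage 5 rows of each gene and in no stage 15 row, where the nearest tick is between 5 kb (hry) and 65 kb (run) away.

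The Hox, mesoderm and signalling lists had counts whose intervals held the 21.8% over all protein-coding genes. None of the 5 Hox cluster genes at a boundary (pb, Scr, Ubx, Abd-B and bcd) was at a gone one only (interval up to 43.5%). Of 6 genes of the NK and mesoderm list, htl, the FGF receptor of the mesoderm, was (16.7%, 3.00 to 56.4; score 0.0308, 10 kb from a stage 15 boundary). Of 13 signalling genes, spi, pyr, arm and fz were (30.8%, 12.7 to 57.6), beside N, Egfr, tkv, Med and 5 others at kept boundaries. The boundary at spi, which encodes the main EGF ligand, had the most negative score of the 635, -1.027, at 2L 19576251 to 19578750. A stage 15 boundary lay 10 kb from it. The boundary at pyr, an FGF ligand for Htl, was 30 kb from stage 15 ones, that at arm, the fly beta-catenin, 27.5 kb, and that at the Wnt receptor gene fz 6.88 kb.

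Of the lists of late differentiation, the epidermis, gut and trachea list had 3 of 4 genes at a gone boundary only (75.0%, 30.1 to 95.4, beside 21.8% over all protein-coding genes): grh (12.5 kb), the GATA factor gene srp (15 kb) and the apical polarity gene crb (5 kb). Of 2 muscle genes, mbc, which acts in myoblast fusion, was (15 kb). None of 3 neuron and glia genes was.

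The counts of ribosomal and proteasome genes were below the 21.8% over all protein-coding genes, with intervals that held it. Of 55 cytoplasmic ribosomal protein genes at a boundary of both stage 5 lists, 9 were at a gone one only (16.4%, 8.86 to 28.3), of 34 mitochondrial ones 5 (14.7%, 6.45 to 30.1) and of 15 proteasome genes 2 (13.3%, 3.74 to 37.9). For 9 of these 16 genes a stage 15 boundary lay within 10 kb. Beside this, 472 of all 818 protein-coding genes at a gone boundary only stayed so with a 10 kb limit for stage 15. The difference was not tested. The nearest stage 15 boundary was 5 kb away at RpL39, mRpS26 and mRpL4, 10 kb at RpS20 and Rpn9, and 12.5 kb at RpS16. It was 15 kb away at mRpL39 and Prosbeta2, which share a boundary, and 17.5 kb at RpS30. RpL12 shares the boundary of RpL39. Of 10 replication and histone genes, His2Av, Caf1-105 and PCNA (30.0%, 10.8 to 60.3) were at gone boundaries, 12.5, 12.5 and 5 kb from stage 15 ones.

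Splicing factor genes had 4 of 9 at gone boundaries only (44.4%, 18.9 to 73.3), an interval that holds the 21.8% over all protein-coding genes. These were x16, B52 and SF2, which encode SR proteins, and snRNP-U1-70K, a subunit of the U1 particle. The boundary inside x16 (2L 6918751 to 6921250) had a score of -0.908, at the 0.965th percentile, and its nearest stage 15 boundary lay 30 kb away. That at B52 (3R 13661251 to 13663750) scored -0.770 and lay 17.5 kb from one. The distance was 10 kb at SF2 and 5 kb at snRNP-U1-70K.

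Cell cycle genes had 3 of 9 (33.3%, 12.1 to 64.6, which also holds 21.8%): trbl, which targets the mitotic phosphatase String for destruction, and the kinase genes lok (Chk2) and polo. The boundary inside trbl was 30 kb from stage 15 ones, the other pair 5 kb. String itself (stg), twe, CycA, grp, Cdk1 and aurB were at kept boundaries.

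The lists of chromatin regulators were small, and differences between them were not tested. None of 9 architectural protein genes was at a gone boundary only (interval up to 29.9%, which holds the 21.8% over all protein-coding genes), and Cp190, BEAF-32, pita, mod(mdg4), SMC1, SMC3, Nipped-B, Dref and pzg were at kept ones. None of 4 Polycomb group genes and none of 3 MSL genes (mle, Clamp and the roX1 RNA gene) was either. Of the 5 NSL genes, MBD-R2 was at a gone boundary 40 kb from stage 15 ones. Trithorax group and remodeller genes had 6 of 12 (50.0%, 25.4 to 74.6): ash1, Mi-2, dom, Iswi, E(bx) and Nurf-38. E(bx) and Nurf-38 encode subunits of the NURF remodeller with Iswi. The genes trx, osa, mor, Chd1, kis and Ino80 were at kept boundaries. The boundary inside Mi-2, the ATPase of the NuRD complex, lay at 3L 19908751 to 19911250 with a score of -0.852, 15 kb from the nearest stage 15 boundary. The distance was 27.5 kb at dom, 15 kb at E(bx), 12.5 kb at ash1, and 5 kb at Iswi and Nurf-38. With a limit of 5 kb, the boundaries of Iswi and Nurf-38 count as kept.

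**Figure D4:**
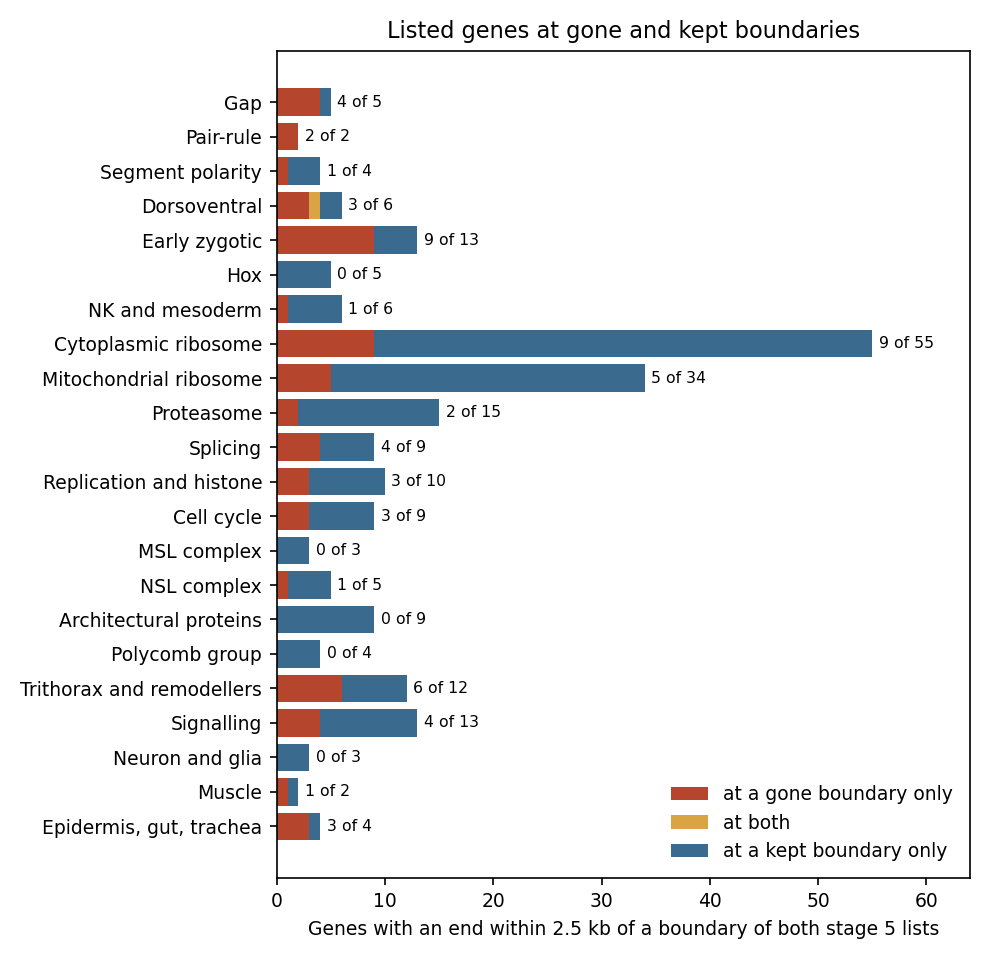
Number of genes of 22 lists with an end within 2.5 kb of a boundary of both stage 5 lists (x axis), split by whether the boundary was gone or kept at stage 15. Labels give genes at gone boundaries only out of all. Over all protein-coding genes the share at gone boundaries only was 21.8%. The gap (4 of 5), pair-rule (2 of 2) and early zygotic (9 of 13) bars are mostly of that colour. So is the epidermis, gut and trachea bar (3 of 4).

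Taken next are the 20 gone boundaries with the most negative scores and no stage 15 boundary within 10 kb. Of these 20, 16 had a gene end at most 1.57 kb away. In the most negative score quintile as a whole, 384 of 408 boundaries had a gene end within 2.5 kb. Among the gone boundaries of that quintile it was 63 of 70, so 16 of 20 shows no excess at gene ends. After x16 and Sry-beta, which lies at the boundary of Sry-alpha, the most negative lay nearest to CG15628, Myo81F, Mi-2, CG1943, B52, His2Av, CG13398 and lilli. The next were CG6712, CG17568, CG31176, beag, CG8379 (nearest to a pair of boundaries), PolQ, Pif1, Leash and Dpm3. The 4 without a gene end lay inside Myo81F, inside the growth regulator brat and, for 2 neighbouring ones with scores of -0.710 and -0.687, inside pyd. Those in pyd, a gene of 104.8 kb, sat 36.25 and 22.5 kb from stage 15 boundaries, within 1 stage 15 domain of 75 kb.

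The 10 gone boundaries farthest from a stage 15 boundary had scores between -0.350 (robo2) and 0.417 (inside mamo). They lay at Scp1 (135 kb), the Toll family gene 18w (117.5 kb), the axon guidance receptor gene robo2 (112.5 kb) and inside the RNA-binding protein gene bru3 (107.5 kb). The rest lay near spok (95.6 kb), inside shep and lovit (85 kb each), and at or near ND-MLRQ, Npc1b and mamo (82.5 kb each). The 5 with the highest scores, 0.741 to 1.197, were 3 on 2R with DIP-lambda as the nearest gene (1 at its end, 1 inside it and 1 at 7.90 kb from it), 1 near CG40228 on 3L and 1 inside heph on 3R. The first 4 lay toward the centromere.

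Gone boundaries lay singly or in runs along the order of the 2039 boundaries. Singles numbered 275, pairs 83 and triplets 35, and 16 runs held 4 or more. A gone boundary was the neighbour of 360 of 635 gone boundaries (56.7%, 52.8 to 60.5) and of 679 of 1404 kept ones (48.4%, 45.8 to 51.0). The longest run had 14 gone boundaries on 3L from 23808126 to 25763750, around Snap25, nvd, scro, Set1 and lovit. In it 11 had no gene end, and 25 other stage 15 boundaries lay in the same stretch. The run of 8 on 2R, 1393751 to 2968750, also lay toward the centromere and ended at Scp1.

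The runs of 7 and 6 lay more than 3 Mb from the centromere-side end. The ND-MLRQ boundary in the run of 6 was 4.67 Mb from that end. Between 4 and 6 Mb from it, over the 5 arms, 36.6% of the boundaries of both stage 5 lists were gone (n = 153). On X, 7 in a row spanned 267.5 kb from 14653751 to 14923750, past the netrin genes NetA and NetB, which encode axon guidance cues, and hog, Flo2 and CG9518. The stage 15 list had 3 boundaries in that stretch. On 3L, 6 lay from 23123751 to 23522500 around nAChRalpha4, ND-MLRQ and AGO3, an Argonaute of the piRNA pathway. On 2L, 5 lay from 1118751 to 1518750, past capt, a5 and robo2 and up to the boundary at halo. It was 1 of 6 runs of that length, 3 of which lay wholly within 3 Mb of the centromere-side end (1 on 2R and 2 on X). Another, chosen after its genes were seen, lay on 3L from 18346251 to 18591875, past the cell death genes grim, rpr and skl and up to the boundary at term. That run spanned 242.8 kb, in which the stage 15 list had 2 boundaries.

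The share of stage 5 boundaries gone was 32.2% on 2L, 30.7% on 2R, 34.3% on 3L, 26.6% on 3R and 33.0% on X. X exceeded the autosomes (30.8%) by 2.19 points, with an interval that included 0 (-3.02 to 7.70). Within 3 Mb of the centromere-side end of the mapped arms, 61 of 105 were gone (58.1%, 48.5 to 67.1), against 574 of 1934 elsewhere (29.7%, 27.7 to 31.7). The difference was 28.4 points (18.6 to 37.6), and this zone was chosen after the data were seen. The arms differed in it. The share there was 16 of 19 on 2R, 13 of 15 on 3L, 15 of 24 on X, 4 of 8 on 3R and 13 of 39 on 2L, where it was close to the 32.1% of the rest of the arm. In the first 2 Mb, 49.2% of boundaries had no gene end and 89.8% had left-out bins beside them, and the part of each in the higher share was not tested. Outside the zone, boundaries without a gene end were gone more often than those with one by 36.5 points (30.8 to 42.0).

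**Figure D5:**
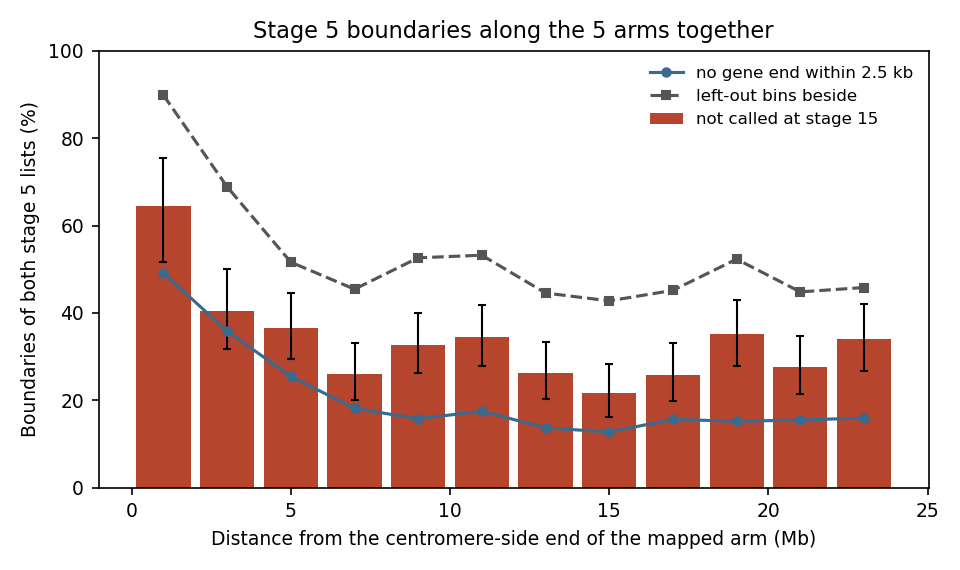
Share of boundaries of both stage 5 lists not called at stage 15 (bars, percent, with 95% Wilson intervals) by distance from the centromere-side end of the mapped arm (x axis, Mb, steps of 2), the 5 arms together. Lines give the shares without a gene end within 2.5 kb and with left-out bins beside. All 3 shares are highest in the first step, where 64.4% of boundaries were gone.

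The rule admitted only boundaries that lay within 1 bin of a mof RNAi boundary, so what follows on that list is a description of values the rule used. The midpoint was identical in the mof RNAi and control lists at 540 gone boundaries (85.0%) and at 1266 kept ones (90.2%). Boundaries displaced by 1 bin after mof RNAi were gone at stage 15 in 40.4% of cases (n = 223), against 29.9% of those with an identical midpoint (n = 1806). Gone boundaries were also wider than 1 bin more often, at 6.46% against 2.28% of kept ones. The 18 with patterning or early zygotic genes included 14 with an identical midpoint after mof RNAi.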

How the data were processed

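In situ Hi-C was measured in 13 libraries, and boundaries on bins of 2.5 kb were read from 3 lists in dm6 coordinates, per the labels and file names. Another list was identical to the control list and was not used. Each boundary has a score, deposited by the authors on a scale that is not stated. No source used here names the aligner, the boundary caller or its thresholds. Libraries of a group were taken as pooled in its list. The other 57 samples (ATAC-seq and ChIP-seq) were not analysed here.

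Matching used midpoints within 2.5 kb. Genes came from the RefSeq table of the matching assembly (13842 protein-coding genes on 5 arms). It holds no strand, so either annotated end was used. No genome sequence was used here, so motifs were not counted and no sequence is shown. Missing numbers in boundary names were taken as bins left out of a map.

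The members, the 22 gene lists (13 of 283 names or name patterns had no match on the arms) and the comparisons were chosen with earlier results of these data known. Named are the 20 gone boundaries with the most negative scores and no stage 15 boundary within 10 kb, the 10 farthest from stage 15 boundaries, the 5 with the highest scores, the 5 longest runs, and the listed genes within 2.5 kb of a gone boundary (ribosomal and proteasome genes at most 6 per list, nearest first), of which 1 is not reported here. Alternatives changed the tolerance, the windows, the boundaries admitted and the arms. Scripts were tested on simulated lists and used Python 3.11.15, numpy 2.4.6, pandas 2.3.3, scipy 1.17.1 and matplotlib 3.10.9.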

Additional observations from a re-analysis of the deposited data

How the results depend on the processing

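The gene end difference kept its sign in each of its 18 alternatives, and the score difference in each of its 15. No other result was a difference whose interval excluded 0, so a reversal could not be counted for the rest. Across the 8 results there were 106 alternative values, of which 78 stayed within the interval of the reported value. For the number of gone boundaries, staying meant within 1.5 times of it. For the median domain length and the score difference, intervals came from binomial limits on the ranks of the values. These served only to sort the alternatives, and the score difference was not tested. The tolerance set the share gone. It was 41.6% with identical midpoints only, 26.4% at 5 kb and 21.7% at 10 kb in both comparisons, and 26.2% and 21.5% when 5 or 10 kb applied to stage 15 alone. The gene end difference widened to -34.0 and -32.7 points at 10 kb (both comparisons, stage 15 alone), and the score difference to 0.323 and 0.300. In the same order of the 5 settings, the median stage 15 domain was 55, 72.5, 80, 72.5 and 77.5 kb. The share with a gone neighbour was 67.3% with identical midpoints, 47.6% at 10 kb, and 52.2% and 47.3% for stage 15 alone. This share rises with the share gone by itself. Its counterpart for kept boundaries was computed for no alternative, so these values do not measure clustering. Among the boundaries with the most negative scores (50% of them), 206 were gone (20.2%), the gene end difference was -10.6 points (-16.4 to -5.89), 33.5% had a gone neighbour, and patterning and early zygotic genes stood at 40.0%. Without boundaries beside left-out bins, 259 were gone (25.2%), the gene end difference was -15.9 points (-21.6 to -10.7), the score difference 0.138 and the median domain 55 kb. The cause of these shifts was not tested, apart from the tolerance, which by construction moves boundaries between gone and kept. The patterning share at 5 and 10 kb for stage 15 was 51.7% and 48.3%, beside 17.1% and 12.6% of all protein-coding genes. The difference of X minus autosomes changed sign among alternatives, between -2.27 points away from left-out bins and 6.37 points against 3R, the only alternative whose interval (0.139 to 12.7) excluded 0. Leaving out the centromere-side 3 Mb, added after the data were seen, left 574 gone (29.7%) and a gene end difference of -24.9 points. Alternatives by transcription start site and by motif were not run, since the gene table holds no strand and no sequence was used here.

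No paired analysis was possible because each condition is 1 pooled list and replicate numbers appear in none of them. Depth is unknown, the libraries in the stage 15 list are not stated, and stage 5 sex was not given. Whether a boundary missing at stage 15 was absent or below the caller's threshold cannot be told apart.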

Other observations

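Genes of small and noncoding RNAs also lay at gone boundaries. They were examined and chosen after their values were seen. Of 554 genes of other biotypes with an end within 2.5 kb of a boundary of both stage 5 lists, 178 (32.1%) were at a gone one and at no kept one. By class, it was 82 of 212 lncRNA genes (38.7%, 32.4 to 45.4), 31 of 101 antisense RNA genes (30.7%), 14 of 57 tRNA genes (24.6%) and 16 of 94 snoRNA genes (17.0%). Of 44 miRNA genes, 19 were (43.2%, 29.7 to 57.8). Neighbouring genes share boundaries, so these counts are of genes and not of independent sites.

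Of the 19 miRNA genes, 8 lay at 1 boundary, 2R 19658751 to 19661250. These were mir-309, mir-3, mir-286, mir-4, mir-5, mir-6-1, mir-6-2 and mir-6-3, the cluster that is transcribed at the onset of zygotic transcription and helps to clear maternal mRNA. The control score there was -0.850, and the nearest stage 15 boundary lay 10 kb away, so with a limit of 10 kb it counts as kept. The genes mir-13a and mir-2c shared another gone boundary, 10 kb from a stage 15 one.

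Spliceosomal and related snRNA genes had 10 of 14 at a gone boundary only (71.4%, 45.4 to 88.3), at 6 boundaries. One on X held U5:14B and U2:14B (10 kb from a stage 15 boundary), and 1 on 3R held U6:96Aa, U6:96Ab and U6:96Ac (12.5 kb). On 2L they lay at U1:21D (20 kb), at U2:34ABc and U5:34A (22.5 kb) and at U5:35D (5 kb), and on 3L at U7 (25 kb). Several of these genes have near-identical copies elsewhere in the genome, to which short reads may map equally well, and the part of this in the calls was not tested.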
